A study of Homo sapiens with 12 samples.

Results

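The hypoxia response and glycolysis genes described here are 36 of the 60649 genes in the deposited tables, chosen by gene symbol. They are 17 glycolytic enzymes, 6 genes of sugar and lactate transport and of control of glycolytic flux, and 13 genes made up of HIF1A, its oxygen sensors and other hypoxia targets. Each of the 36 symbols was matched to 1 row, and 35 passed the filter on low counts. The exception was EGLN3, an oxygen-sensing prolyl hydroxylase, which reached at most 0.0433 on the counts-per-million scale (CPM) in any library and was not tested. RNA was measured by poly(A) RNA-seq in AC16 cells, an established human line made by fusing cells of adult ventricular heart tissue with a fibroblast line. All 12 libraries carry the label WT, heart and cardiomyocyte, and they form 4 groups of 3. The repeat group received IFN-α for 24 h, was held for 4 d, and received IFN-α for a further 24 h. The recovery group received IFN-α for 24 h and was then held for 5 d without it. The acute group received IFN-α for 24 h and was harvested at once, and the vehicle group received PBS and is labelled 24 h. The dose of IFN-α was 1000 U per mL throughout. The labels name no low-oxygen treatment, so oxygen was not varied between the groups as labelled. Recovery and repeat cells spent more days in culture than vehicle and acute cells as labelled. Time in culture and the history of interferon therefore cannot be told apart where those groups are compared with vehicle or acute cells. The same holds for the difference between the responses to the later and the first pulse. The labels give harvest on day 6 for recovery and day 7 for repeat cells, so time in culture may differ between them too.

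Glycolysis splits glucose into pyruvate in the cytosol, and lactate dehydrogenase turns pyruvate into lactate when oxygen is short or flux is high. HIF-1α, the protein of HIF1A, is made all the time, is marked for destruction by prolyl hydroxylases that use oxygen, and builds up when oxygen is scarce. It then binds the hypoxia response element of genes for glucose uptake, nearly every step of glycolysis, pH control, mitophagy, vessel growth and collagen processing. HIF1A is regulated mostly at the level of its protein, which was not measured here, so RNA of the targets and of HIF1A can move apart. The heart burns mainly fatty acids, and a shift towards glycolysis is a known feature of cardiac muscle short of oxygen.

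The libraries held 39941319 to 62281900 estimated counts. The treatment labels were checked on MX1, OAS1, IFIT1 and ISG15, induced by type I interferon, whose summed level in TPM (transcripts-per-million, scaled by gene length) ranged over 1607 to 1697 in repeat, 113 to 118 in recovery, 1587 to 1638 in acute and 77.7 to 81.5 in vehicle libraries. The cardiomyocyte label was checked on 20 markers, of which 4 passed the filter. Their summed level was 5.23 to 7.02 TPM in repeat, 5.66 to 7.32 TPM in recovery, 6.16 to 6.37 TPM in acute and 6.3 to 7.73 TPM in vehicle libraries. MYL7 and MYBPC3, parts of the sarcomere, were at 0 in every library, and TNNT2, cardiac troponin T, never exceeded 14 counts. All 12 fibroblast markers were detected, with a summed level of 4698 to 4820 TPM in repeat, 4893 to 4945 TPM in recovery, 4810 to 4974 TPM in acute and 4892 to 5087 TPM in vehicle libraries. The cells therefore carry the cardiomyocyte label without most of its defining transcripts. Of these fibroblast markers, 8 fell and 2 rose in acute against vehicle cells, 8 fell and 2 rose in repeat against recovery cells, and 9 fell and 1 rose in recovery against vehicle cells. Over all genes the shares that fell and rose were 21.5% and 22.3%, 20.5% and 21.1%, and 2.91% and 3.03% in these comparisons in turn. The part of the fibroblast markers in the results below was not tested.

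RefSeq promoter windows (GRCh38.p14, 250 bases before to 50 after a start) were given for 32 of the 36 genes, with 61 starts in all. SLC2A3, VEGFA, BNIP3L and NDRG1 had none. The core of the hypoxia response element, ACGTG on either strand, occurred in at least 1 window of 20 of those 32 genes, 62.5%, against 24.9% of all 27305 genes in the table. Counted per start, it occurred in 42.6% of the 61 windows and in 21.4% of all 35116 windows. The interferon-stimulated response element, searched on either strand as a pair of GAAA runs with any 2 bases between them, was found in the windows of 1 of the 32 genes, PFKM, 3.1%, against 4.4% of all genes. The STAT site, searched as TTCNNNGAA, was found for 2 of the 32 genes, 6.2%, against 9.4% of all genes. A palindromic CACGTG counts once on each strand. Promoters of 4 genes that the results turn on are shown as the 250 bases before the start, read 5′ to 3′ along the gene, with ACGTG and its reverse complement CACGT in capitals. LDHA, ALDOC and CA9 were lower after interferon and HK2 was higher, and all 4 windows hold the core. These genes were picked and not drawn by a rule. Other called genes lack the core: P4HA2, which was higher, and ENO1 and ADM, which were lower, had 0 matches.
LDHA (chr11:18394313-18394562, plus strand): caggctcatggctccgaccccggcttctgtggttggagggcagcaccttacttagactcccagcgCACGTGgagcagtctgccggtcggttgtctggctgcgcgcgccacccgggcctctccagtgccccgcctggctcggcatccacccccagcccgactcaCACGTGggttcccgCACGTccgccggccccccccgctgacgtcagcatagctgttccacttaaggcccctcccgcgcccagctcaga
ALDOC (chr17:28576896-28577145, minus strand): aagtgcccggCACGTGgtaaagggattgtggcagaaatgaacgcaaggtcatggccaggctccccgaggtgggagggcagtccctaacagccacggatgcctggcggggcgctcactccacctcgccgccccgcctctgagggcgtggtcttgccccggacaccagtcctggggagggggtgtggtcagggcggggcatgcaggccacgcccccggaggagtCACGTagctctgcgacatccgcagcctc
CA9 (chr9:35673678-35673927, plus strand): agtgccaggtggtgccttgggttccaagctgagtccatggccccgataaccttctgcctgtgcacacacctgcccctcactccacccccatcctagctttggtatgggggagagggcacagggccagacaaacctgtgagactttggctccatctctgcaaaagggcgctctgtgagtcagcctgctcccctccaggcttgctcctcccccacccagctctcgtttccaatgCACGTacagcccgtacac
HK2 (chr2:74833877-74834126, plus strand): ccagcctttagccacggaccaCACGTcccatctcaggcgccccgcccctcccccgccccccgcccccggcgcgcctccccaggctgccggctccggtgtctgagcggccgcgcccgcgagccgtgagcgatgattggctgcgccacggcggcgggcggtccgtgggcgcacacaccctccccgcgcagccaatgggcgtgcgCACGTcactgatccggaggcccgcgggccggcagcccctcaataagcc
LDHA holds 5 matches, ALDOC 3, HK2 2 and CA9 1 in these stretches, so the letters were present in promoters of genes that moved in either direction. LDHA and HK2 each have 2 starts in RefSeq, of which the upstream start is shown. In the window of the other start LDHA had 0 matches and HK2 had 4. A match is a run of letters and says nothing of binding.

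In the response to the first pulse (acute against vehicle), HK2 and the collagen-processing genes P4HA2 and LOX were higher, while LDHA, ALDOC, ENO1, ENO2, BNIP3L, NDRG1, VEGFA, CA9 and PDK1 were lower. A gene was called when its adjusted p, from edgeR's quasi-likelihood test with Benjamini-Hochberg adjustment over all 18119 genes tested, was under 0.05. By that rule 9 of the 35 genes tested rose and 18 fell, against a background of 22.3% of all genes called higher and 21.5% called lower. The median log2 fold change of the 35 was -0.06, against 0 over all genes. Only 6 of the 27 called genes moved by at least 0.5 on the log2 scale. Of the 27, 16 were also called in the same direction on TPM and with an offset for gene length, as were 47.7% of all genes called; the other 11 were HK1, PFKL, PFKM, GAPDH, SLC2A1, SLC2A3, SLC16A3, HIF1A, EGLN1, CA9 and BNIP3. In bulk RNA, fewer cells expressing a gene and less RNA per cell cannot be told apart. The plot of fold changes gives every gene with its interval.

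**Figure D1:**
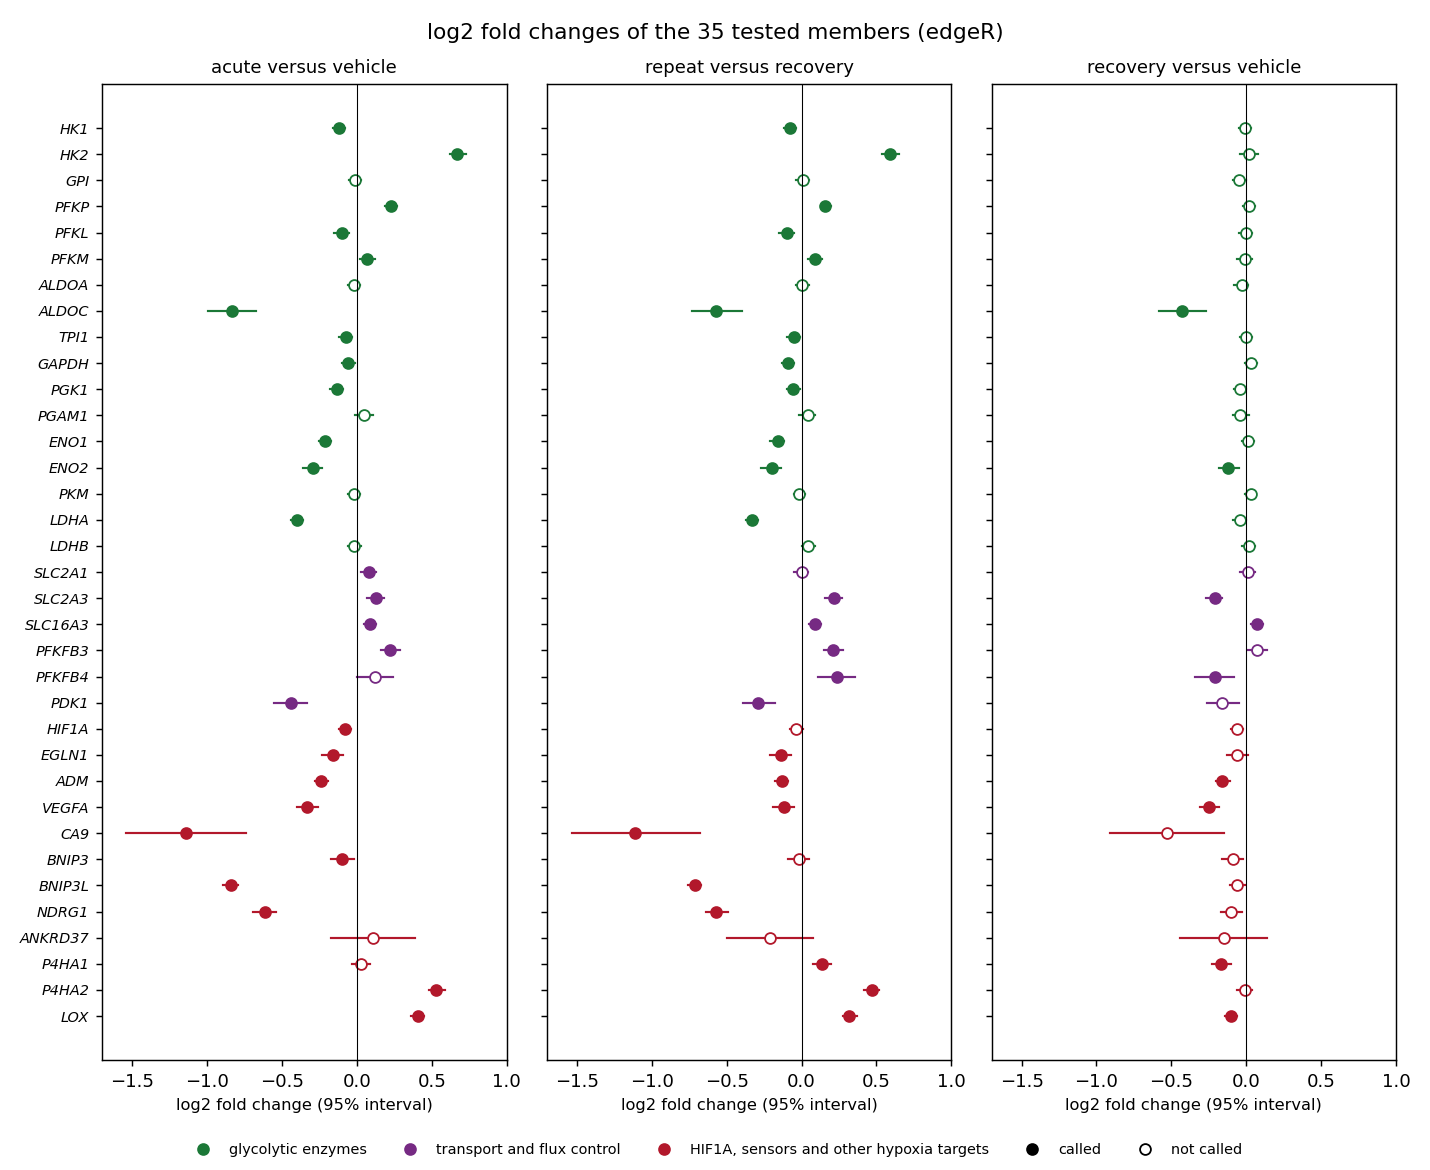
log2 fold changes (x axis) of the 35 tested genes (rows) in acute against vehicle, repeat against recovery and recovery against vehicle cells, with 95% intervals derived from edgeR's F statistic. Filled points are called, and colours mark the role groups. HK2, P4HA2 and LOX lie to the right and ALDOC, CA9, BNIP3L and NDRG1 to the left after both pulses, and no called point of recovery against vehicle lies as far as 0.5 from 0.

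Among the 17 glycolytic enzymes, 3 rose in acute against vehicle cells (HK2, PFKP and PFKM), 9 fell (HK1, PFKL, ALDOC, TPI1, GAPDH, PGK1, ENO1, ENO2 and LDHA) and 5 were not called (GPI, ALDOA, PGAM1, PKM and LDHB). Of all genes 22.3% were called higher and 21.5% lower, so the share of enzymes that rose was no larger than that of all genes. The share that fell was larger, with falls as small as 4.01% (GAPDH) among the calls. HK2, the inducible hexokinase that traps glucose as glucose 6-phosphate, had 98.6, 96.7 and 92.3 CPM in acute cells against 60.7, 61.4 and 58.5 CPM in vehicle cells. It had 92.3, 91.6 and 91.5 CPM in repeat cells against 62, 60.5 and 60.3 CPM in recovery cells. Every library harvested at the end of a pulse was above every library harvested without IFN-α, with no overlap. The log2 fold change was 0.67 ± 0.0285 (SE, n = 3 a group; edgeR adjusted p = 2.55e-17) after the first pulse and 0.59 ± 0.0283 (edgeR adjusted p = 5.12e-16) after the later one. HK1, the constitutive hexokinase, fell by 7.82% in acute against vehicle cells (333 ± 3.23 against 361 ± 2.01 CPM, SD, n = 3 each).

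ALDOC, a minor aldolase best known from brain, had 6.98, 7.29 and 6.62 CPM in acute cells against 14.1, 12.3 and 10.6 CPM in vehicle cells. In repeat cells it had 6.09, 6.43 and 6.06 CPM, against 9.28, 9.57 and 8.74 CPM in recovery cells. All 6 libraries taken at the end of a pulse were lower than the other 6, and the recovery libraries lay below all 3 vehicle libraries. The log2 fold change was -0.83 ± 0.0822 in acute against vehicle (edgeR adjusted p = 3.49e-09) and -0.57 ± 0.0845 in repeat against recovery (edgeR adjusted p = 3.51e-06). LDHA, the lactate dehydrogenase subunit that favours lactate formation and a classic HIF target, had 772, 767 and 750 CPM in acute cells against 1020, 989 and 1020 CPM in vehicle cells. Its levels in repeat cells were 755, 790 and 788 CPM, against 979, 964 and 985 CPM in recovery cells. The groups did not overlap, and LDHA fell by 24.2% after the first pulse and fell by 20.4% after the later one. Its log2 fold change was -0.40 ± 0.0213 (edgeR adjusted p = 4.64e-15) in acute against vehicle. In repeat against recovery it was -0.33 ± 0.0212 (edgeR adjusted p = 4.3e-13), a call that was lost on TPM, where the log2(TPM + 1) difference was -0.20 (limma adjusted p = 0.0934).

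The other enzymes moved by less. ENO2, the neuronal enolase, fell by 18.4% and ENO1, the main enolase, fell by 13.3% in acute against vehicle cells. PGK1, which makes the first ATP of the pathway, fell by 8.67%, and TPI1, which interconverts the triose phosphates, fell by 5%. PFKP, the platelet-type phosphofructokinase of the committed step, rose by 17%. Of the remaining calls, PFKL fell by 6.75% and PFKM was 4.84% higher. GAPDH, often used as a reference gene, had the highest mean TPM of the enzymes. It was at 3560, 3660 and 3560 CPM in acute cells against 3740, 3790 and 3690 CPM in vehicle cells, and at 3530, 3730 and 3510 CPM in repeat cells against 3830, 3870 and 3760 CPM in recovery cells. The groups of each pair did not overlap, but the difference after the first pulse was small (log2 fold change -0.06 ± 0.0225, edgeR adjusted p = 0.0342). That call was lost on TPM and when vehicle replicate 1 or 2 or acute replicate 1 or 3 was left out (-0.07 to -0.05 over all 12 libraries left out in turn). The PFKM call after the first pulse was also lost without any of 6 single libraries, vehicle replicates 1, 2 and 3, acute replicates 1 and 3 and repeat replicate 3, with values of 0.06 to 0.08. The calls for HK1 and PFKL were lost on TPM.

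**Figure D2:**
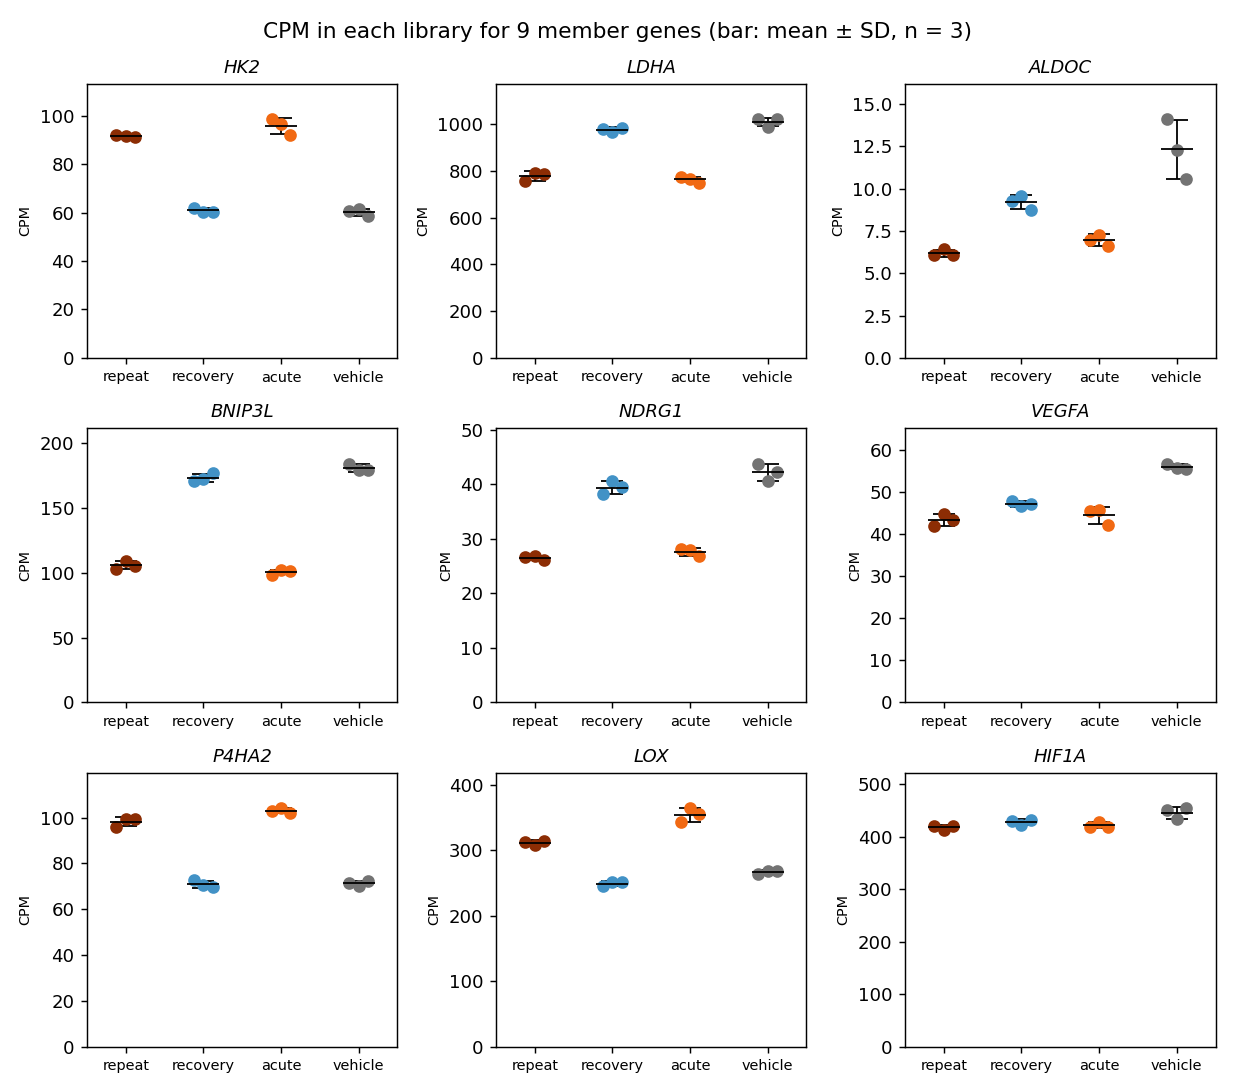
CPM (y axis, from 0) of 9 genes in each of the 12 libraries, by group, with the mean and SD of the 3 libraries of a group. HK2 and P4HA2 are high in the repeat and acute libraries, LDHA, BNIP3L and NDRG1 are low there, and VEGFA is highest in the vehicle libraries.

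Levels of the enzymes were compared per length, in TPM. GAPDH averaged 2610 ± 92.2 TPM in repeat, 2800 ± 28.4 TPM in recovery, 2630 ± 32.6 TPM in acute and 2750 ± 34.7 TPM in vehicle cells (SD, n = 3 each). ALDOA, TPI1 and PKM followed near the same level in vehicle cells, at 2180 ± 32.1, 2070 ± 17.9 and 1910 ± 36.6 TPM. At the low end stood ALDOC (10.4 ± 1.1 TPM) and HK2 (7.76 ± 0.177 TPM) in vehicle cells, so the 2 enzymes with the largest fold changes stood lowest in TPM. The gene length implied by HK2's own counts and TPM was 7.67 times the library's mean, against 1.37 for GAPDH, and the low TPM of HK2 rests on that length. The 17 enzymes together took 13407, 13830 and 13666 TPM in repeat cells, 14477, 14107 and 14147 TPM in recovery cells, 13552, 13605 and 13397 TPM in acute cells and 14328, 14191 and 14161 TPM in vehicle cells. As a share of all TPM this was 1.36% ± 0.0213 in repeat, 1.42% ± 0.0203 in recovery, 1.35% ± 0.0108 in acute and 1.42% ± 0.00888 in vehicle cells (SD, n = 3 each). Every repeat and acute library lay below every recovery and vehicle library in the summed level.

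**Figure D3:**
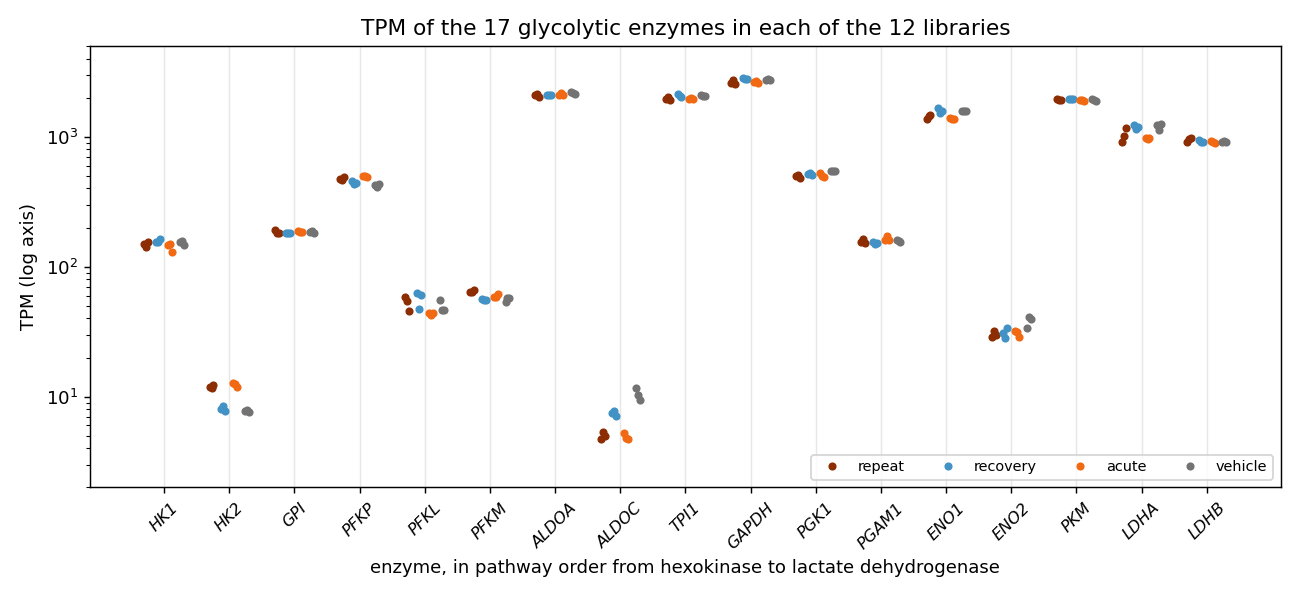
TPM (log y axis) of the 17 glycolytic enzymes in pathway order (x axis), 1 point per library, coloured by group. Levels are lowest for ALDOC and HK2 and above 2000 TPM for ALDOA and GAPDH, and the groups of most enzymes lie close together on this scale.

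The share of each isozyme in its family's TPM was compared with an exact two-sided permutation test, which with 3 libraries against 3 cannot give a p under 0.1; 21 shares and comparisons were tested. HK2 made up 8, 7.7 and 8.47% of hexokinase TPM in acute cells against 4.78, 4.81 and 4.88% in vehicle cells, a difference of 3.24 percentage points (exact permutation p = 0.1, the smallest possible; adjusted p = 0.191). As a share of counts, not scaled by length, HK2 averaged 22.4% in acute and 14.3% in vehicle cells, a difference of 8.07 percentage points. LDHA made up 51.4, 51.2 and 52.3% of lactate dehydrogenase TPM in acute cells against 57.6, 55.1 and 58% in vehicle cells, and the 2 groups did not overlap. For that family the difference was -5.25 percentage points in acute against vehicle (exact permutation p = 0.1). ALDOC averaged 0.232% of aldolase TPM in acute cells and 0.477% in vehicle cells, a difference of -0.245 percentage points on TPM and -0.423 on counts (exact permutation p = 0.1). PFKP averaged 82.8% of phosphofructokinase TPM in acute cells and 80% in vehicle cells, also without overlap (exact permutation p = 0.1). In repeat against recovery the PFKP share averaged 80.3% against 79.6%, and the groups overlapped (exact permutation p = 0.5). As a share of counts, PFKP averaged 67.5% in repeat and 64.4% in recovery cells, a difference of 3.13 percentage points. The difference on counts in acute against vehicle was 4.22 percentage points, so the result for the later pulse depends on the gene length used. In recovery against vehicle the HK2 share differed by 0.071 percentage points (exact permutation p = 0.7) and the LDHA share by -0.712 (exact permutation p = 0.5).

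**Figure D4:**
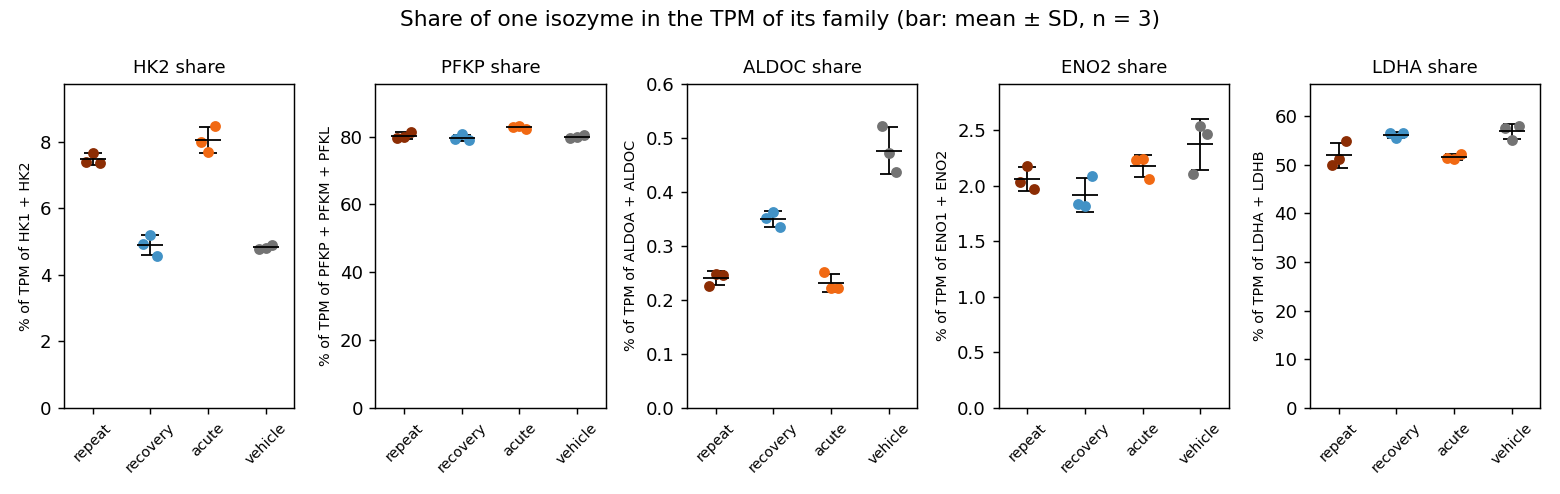
Share of HK2, PFKP, ALDOC, ENO2 and LDHA in the summed TPM of their family, in percent (y axes from 0), for each library by group, with mean and SD. The HK2 share is high and the ALDOC and LDHA shares are low in the repeat and acute libraries.

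Of the 6 genes of transport and flux control, 4 rose in acute against vehicle cells (SLC2A1, SLC2A3, SLC16A3 and PFKFB3), PDK1 fell, and PFKFB4 was not called. The shares of all genes were 22.3% higher and 21.5% lower. SLC2A1, the glucose transporter GLUT1, had the highest mean TPM of the group. It was at 175, 170 and 167 CPM in acute cells against 161, 160 and 163 CPM in vehicle cells, and at 157, 168 and 161 CPM in repeat cells against 162, 163 and 163 CPM in recovery cells. The acute libraries lay above the vehicle libraries, while repeat and recovery libraries overlapped. The log2 fold change was 0.08 ± 0.0248 (edgeR adjusted p = 0.00857) after the first pulse and 0 ± 0.0246 (edgeR adjusted p = 0.912) after the later one, and the difference between the pulses was not called (-0.09 ± 0.0349, edgeR adjusted p = 0.346). The first of these calls was lost with upper quartile scaling, with the length offset, on TPM and without acute replicate 1 (0.06 to 0.10 over all libraries left out in turn).

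PFKFB3, which makes the activator of phosphofructokinase, fructose 2,6-bisphosphate, was 16.7% higher in acute than in vehicle cells (59.6 ± 0.673 against 51.1 ± 2.14 CPM, SD, n = 3 each; edgeR adjusted p = 3.92e-06). It was 15.8% higher in repeat than in recovery cells, a call that was lost on TPM. PFKFB4, of the same family, was not called after the first pulse (0.12 ± 0.0624, edgeR adjusted p = 0.123), while after the later pulse it rose by 18% on counts and was not called on TPM. SLC2A3, the high-affinity glucose transporter GLUT3, rose by 9.28% after the first pulse, a call lost on TPM, and by 16.3% after the later one. SLC16A3, the lactate exporter MCT4, was 6.31% higher in acute than in vehicle cells on counts. That direction turned on TPM (-0.05, limma adjusted p = 0.512), so it depends on the gene length used. PDK1, the kinase that blocks pyruvate dehydrogenase and a HIF target, fell by 26.4% after the first pulse, with 16.7 ± 0.966 CPM in acute and 22.8 ± 1.32 CPM in vehicle cells (SD, n = 3 each; edgeR adjusted p = 1.33e-07). After the later pulse it fell by 17.9% on counts, a call lost on TPM.

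HIF1A itself had 419, 428 and 418 CPM in acute cells against 451, 433 and 454 CPM in vehicle cells, and 420, 413 and 420 CPM in repeat cells against 430, 422 and 432 CPM in recovery cells. Acute and vehicle libraries did not overlap, and the difference was small. The log2 fold change was -0.08 ± 0.0212 (edgeR adjusted p = 0.00242) after the first pulse, a call lost on TPM, and -0.04 ± 0.0212 (edgeR adjusted p = 0.191) after the later one. Of the 12 tested genes of HIF1A, the sensors and other targets, 2 rose (P4HA2 and LOX), 8 fell (HIF1A, EGLN1, ADM, VEGFA, CA9, BNIP3, BNIP3L and NDRG1) and 2 were not called (ANKRD37 and P4HA1) in acute against vehicle cells. With 22.3% of all genes called higher and 21.5% lower, the share of this group that rose was no larger than that of all genes. The share that fell was larger, with falls as small as 5.48% (HIF1A) among the calls. EGLN1, the main prolyl hydroxylase that marks HIF-1α for destruction and itself a HIF target, fell by 10.3% on counts and was not called on TPM.

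BNIP3L, a mitophagy receptor also known as NIX, had 98.6, 102 and 101 CPM in acute cells against 184, 179 and 179 CPM in vehicle cells. After the later pulse it had 103, 109 and 105 CPM in repeat cells against 171, 172 and 177 CPM in recovery cells. The groups of each pair were far apart, and recovery libraries lay just under the vehicle libraries without being called (-0.06 ± 0.0242, edgeR adjusted p = 0.188). The log2 fold change was -0.84 ± 0.0252 (edgeR adjusted p = 5.6e-21) after the first pulse and -0.71 ± 0.0248 (edgeR adjusted p = 2.5e-19) after the later one. Its relative BNIP3, which acts in the same process, fell by 6.39% after the first pulse, at 76.6 ± 3.97 CPM in acute and 81.9 ± 3.44 CPM in vehicle cells. That call was lost on TPM, with DESeq2, and without vehicle replicate 1 or 2, acute replicate 2 or 3 or recovery replicate 2 (-0.13 to -0.06).

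NDRG1, a stress-induced gene and common marker of hypoxia, had 28.1, 28 and 26.8 CPM in acute cells against 43.7, 40.6 and 42.2 CPM in vehicle cells. In repeat cells it had 26.6, 26.8 and 26.1 CPM, against 38.1, 40.5 and 39.4 CPM in recovery cells. Neither pair of groups overlapped, and the log2 fold change was -0.61 ± 0.0382 (edgeR adjusted p = 1.76e-13) after the first pulse and -0.57 ± 0.038 (edgeR adjusted p = 8.89e-13) after the later one. NDRG1 had the highest mean TPM of its role group (300 ± 12.6 TPM in vehicle cells). The gene length implied by its counts and TPM was 0.14 of the library's mean length, against 2.1 for HIF1A, so its rank in TPM rests on that implied length. In CPM it stood lower, at 42.2 ± 1.58 against 446 ± 11.2 for HIF1A in vehicle cells.

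CA9, a cell-surface carbonic anhydrase that is among the most specific HIF targets, was near the lower limit of detection. It had 0.712, 0.785 and 1.02 CPM in acute cells against 2.14, 1.95 and 1.43 CPM in vehicle cells, and 0.552, 0.663 and 0.556 CPM in repeat cells against 1.59, 1.08 and 1.17 CPM in recovery cells. The groups did not overlap, and the log2 fold change was -1.14 ± 0.204 (edgeR adjusted p = 3.66e-05) after the first pulse and -1.11 ± 0.215 (edgeR adjusted p = 0.000114) after the later one. On log2(TPM + 1) the first of these was -0.28 and not called (limma adjusted p = 0.457). ANKRD37, a small ankyrin-repeat gene induced by hypoxia, was also low, at 1.75 to 2.86 CPM over all libraries, and was called in neither pulse.

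The secreted factors VEGFA and ADM fell. VEGFA, which drives growth of blood vessels, fell by 20.5% in acute against vehicle cells (44.4 ± 2.02 against 55.9 ± 0.651 CPM, SD, n = 3 each; edgeR adjusted p = 5.58e-09). ADM, the vasodilator adrenomedullin, fell by 15% (129 ± 1.61 against 152 ± 1.85 CPM, SD, n = 3 each; edgeR adjusted p = 2.71e-09). After the later pulse ADM fell by 8.77% and VEGFA fell by 8.02%, the VEGFA call being lost on TPM.

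Of the 3 genes of collagen processing, P4HA2 and LOX rose after the first pulse and P4HA1 was not called. P4HA2, a catalytic subunit of collagen prolyl 4-hydroxylase, had 103, 104 and 102 CPM in acute cells against 71.4, 70.1 and 72.5 CPM in vehicle cells. It had 95.9, 99.3 and 99.4 CPM in repeat cells against 72.7, 70.4 and 69.6 CPM in recovery cells. There was no overlap, and the log2 fold change was 0.53 ± 0.0263 (edgeR adjusted p = 8.02e-16) after the first pulse and 0.47 ± 0.0261 (edgeR adjusted p = 1.38e-14) after the later one. LOX, which cross-links collagen, had 343, 364 and 355 CPM in acute cells against 264, 269 and 268 CPM in vehicle cells, and 312, 308 and 315 CPM in repeat cells against 245, 252 and 251 CPM in recovery cells. LOX too was higher in every library at the end of a pulse, with a log2 fold change of 0.41 ± 0.0222 (edgeR adjusted p = 8.72e-15) and then 0.32 ± 0.0222 (edgeR adjusted p = 1.56e-12). P4HA1, the other catalytic subunit in the list, was not called after the first pulse (0.03 ± 0.031, edgeR adjusted p = 0.459) and was 10.5% higher after the later one, a call lost on TPM.

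In the response to the later pulse (repeat against recovery), 10 of the 35 genes rose and 16 fell, against 21.1% of all genes higher and 20.5% lower. By role, 3 enzymes rose and 9 fell, 4 transport and flux genes rose and 1 fell, and 3 genes of the HIF1A group rose and 6 fell. PFKP rose by 12.1%, with 477 ± 1.11 CPM in repeat and 425 ± 5.33 CPM in recovery cells, and PFKM was 6.5% higher. ENO1 fell by 10.8%, with 2420 ± 68 CPM in repeat and 2720 ± 28.2 CPM in recovery cells (SD, n = 3 each), and ENO2 fell by 13.2%. The other enzymes called lower and not yet given for this pulse moved by less: PFKL fell by 6.69%, GAPDH fell by 6%, HK1 fell by 5.22%, PGK1 fell by 4% and TPI1 fell by 3.7%. Outside the enzymes, SLC16A3 was 6.54% higher and EGLN1 fell by 9.25%. Of the 26 calls, 14 were made in the same direction on TPM and with the length offset, as were 45.3% of all genes called; the other 12 were HK1, PFKL, PGK1, ENO2, LDHA, SLC16A3, PFKFB3, PFKFB4, PDK1, EGLN1, VEGFA and P4HA1. The call for TPI1 after the later pulse was lost without any 1 of vehicle replicate 2, acute replicates 1 and 3, recovery replicates 1 and 2 and repeat replicates 1 and 3 (-0.07 to -0.03). That for PGK1 was lost without any 1 of recovery replicates 1, 2 and 3 and repeat replicate 1 (-0.07 to -0.03), and that for PFKM without recovery replicate 3 (0.07 to 0.10). The difference between the responses, tested as the change of repeat over recovery minus the change of acute over vehicle, was called for 1 of the 35 genes in the higher direction and 0 in the lower, against 0.221% and 0.43% of all genes. At an unadjusted p under 0.05 these numbers were 8 and 3, against 4.79% and 5.76% of all genes, and DESeq2 called 1 and 0. The gene was VEGFA, whose difference of log2 fold changes was 0.21 ± 0.0489 (edgeR adjusted p = 0.0413). It had 41.9, 44.8 and 43.4 CPM in repeat cells against 47.9, 46.5 and 47.1 CPM in recovery cells, and 45.4, 45.7 and 42.1 CPM in acute cells against 56.6, 55.7 and 55.4 CPM in vehicle cells. The later pulse thus gave the smaller decrease, from a recovery level already under the vehicle level. The end levels were close, at 43.3 ± 1.46 CPM in repeat and 44.4 ± 2.02 CPM in acute cells (log2 fold change -0.04, edgeR adjusted p = 0.681). No vehicle cells were held as long as recovery cells, so a changed response and a starting level lowered by time in culture cannot be told apart. The call for the difference was lost on TPM, with the length offset, and when any of vehicle replicates 1 and 2, acute replicate 3, recovery replicates 1, 2 and 3 or repeat replicates 2 and 3 was left out, with values of 0.18 to 0.24.

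In recovery against vehicle cells, after the 5 d hold, 1 of the 35 genes was called higher (SLC16A3) and 8 lower, against 3.03% of all genes higher and 2.91% lower. At an unadjusted p under 0.05, 2 were higher and 16 lower, against 8.3% and 8.7% of all genes, and 9 of those 16 were among the 12 tested genes of the HIF1A group. The median log2 fold change of the 35 was -0.04, against 0 over all genes. The fibroblast markers were lower in the same comparison, as given above. The 8 were ALDOC and ENO2 among the enzymes, SLC2A3 and PFKFB4 among the transport and flux genes, and ADM, VEGFA, P4HA1 and LOX. No enzyme was called higher by edgeR; at an unadjusted p under 0.05 the enzymes gave 0 higher and 4 lower, and DESeq2 called 0 and 1. HK2 was at 60.9 ± 0.937 CPM in recovery and 60.2 ± 1.53 CPM in vehicle cells (SD, n = 3 each), with a log2 fold change of 0.02 and a 95% interval of -0.04 to 0.08. For P4HA2 it was -0.01 with an interval of -0.06 to 0.04. ALDOC fell by 25.7% in recovery against vehicle cells (9.19 ± 0.424 against 12.3 ± 1.76 CPM, SD, n = 3 each; edgeR adjusted p = 0.000711). VEGFA fell by 15.7% (47.1 ± 0.664 CPM in recovery against 55.9 ± 0.651 CPM in vehicle cells), ADM fell by 10.3%, P4HA1 fell by 10.8% and LOX fell by 6.63%. SLC2A3 fell below vehicle by 13.8% although it rose in acute cells, and LOX did the same. Of these 9 calls, that for ALDOC held in every alternative tried. ADM held with the length offset but not on TPM (limma adjusted p = 0.0596), and the other calls were lost on TPM and with the length offset. Of all genes called in this comparison, 9.94% were also called in the same direction on TPM and with the length offset. The ENO2, PFKFB4, SLC16A3 and LOX calls were also lost when some single libraries were left out. LOX was lost without recovery replicate 1 (-0.11 to -0.09), and ENO2 without any 1 of vehicle replicates 1 and 2 and recovery replicates 1, 2 and 3 (-0.13 to -0.10). SLC16A3 was lost without any 1 of vehicle and acute replicates 2 and 3 and recovery replicates 1, 2 and 3 (0.06 to 0.09), which left 0 genes called higher. PFKFB4 was lost without any 1 of the vehicle, acute and recovery libraries or repeat replicate 2 (-0.24 to -0.19). Without recovery replicate 1 the number called lower was 5, and over all genes it was 418, against 527 with all libraries.

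From the end of the first pulse to the end of the hold (recovery against acute), 15 of the 35 genes were higher and 11 lower, against 20.4% and 20.7% of all genes. LOX was at 249 ± 3.48 CPM in recovery and 354 ± 10.4 CPM in acute cells, a log2 fold change of -0.51 ± 0.0223 (edgeR adjusted p = 7.11e-17). This comparison shares the acute and recovery libraries with the ones above. The whole regimen (repeat against vehicle) gave 8 higher and 19 lower calls among the 35, against 23.4% and 22.9% of all genes. CA9 had the largest change of the list in it, at -1.63 ± 0.208 (edgeR adjusted p = 1.81e-07), followed by ALDOC at -1 ± 0.0814 (edgeR adjusted p = 7.8e-11). Between the ends of the 2 pulses (repeat against acute), 2 genes were higher, LDHB by 0.08 and SLC16A3 by 0.08 on the log2 scale, and 2 were lower, LOX by -0.18 and SLC2A3 by -0.13. The background there was 1.77% of all genes higher and 2.43% lower. All 4 of these calls were lost on TPM and with the length offset. With single libraries left out the number called higher ranged over 0 to 4. It was 4 without repeat replicate 1, 1 without recovery or repeat replicate 3, and 0 without vehicle replicate 2, recovery replicate 1 or 2, repeat replicate 2 or any 1 acute library. The number called lower was 1 without acute replicate 3. The counts over all genes moved as well. With single libraries left out, 147 to 526 genes were called higher, with 526 without repeat replicate 1. Those called lower were 166 to 692, with 166 without acute replicate 3.

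Other genes of the same pathways, taken from 3 lists, were read from the same fit. Of 11 tested genes of the HIF system outside the members, 7 fell and the other 4 were not called in acute against vehicle cells, where 22.3% of all genes were called higher and 21.5% lower, with a median log2 fold change of -0.16 against 0 over all genes. The partner subunit ARNT2 had 71.5 ± 1.61 CPM in acute and 97.8 ± 1.62 CPM in vehicle cells (log2 fold change -0.45), EPAS1, which encodes HIF-2α, had 75.3 ± 1.59 and 95.6 ± 2.75 CPM (-0.35), and VHL, the ubiquitin ligase subunit that recognises hydroxylated HIF, had 43.1 ± 1.04 and 53 ± 0.997 CPM (-0.30; SD, n = 3 each). Of 35 other hypoxia-induced genes tested, 11 rose and 8 fell, with a median of 0, and the share that fell was near that of all genes. The largest changes among the calls were in ANGPTL4, an inhibitor of lipoprotein lipase, at 2.11 ± 0.152 CPM in acute and 0.509 ± 0.0746 CPM in vehicle cells (log2 fold change 2.03 ± 0.195). Its vehicle level was below the 1.84 CPM of CA9, so ANGPTL4 too was near the lower limit of detection there. MT1X, a metallothionein, was at 38 ± 1.74 CPM in acute and 11.7 ± 1.41 CPM in vehicle cells (1.71 ± 0.074), and MXI1, a repressor that opposes MYC, was at 6.05 ± 0.438 and 10.1 ± 0.405 CPM (-0.73 ± 0.0814). Of 23 other sugar and pyruvate handling genes tested, 6 rose and 6 fell, near the shares of all genes, with a median of 0.02. There the pyruvate dehydrogenase kinases PDK3 (2.2 ± 0.172 CPM in acute and 4.32 ± 0.275 CPM in vehicle cells, -0.98 ± 0.116) and PDK2 (22.3 ± 0.814 and 32.7 ± 0.739 CPM, -0.55 ± 0.0408) fell as PDK1 did, and the sugar transporter SLC2A6 fell by 0.41 on the log2 scale. In repeat against recovery ANGPTL4 rose by 1.66 ± 0.178, MT1X by 1.38 ± 0.0712, and PDK3 and PDK2 were at -0.87 ± 0.113 and -0.46 ± 0.0401. The calls from these 3 lists were not checked gene by gene on TPM or with the length offset.

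Several members have near-identical pseudogenes whose rows could share their reads. Some also have antisense genes, which are not copies of the member. Relative to its member, the highest row of either kind was the antisense gene PDK1-AS1, at up to 5.54% of the PDK1 count. Next came the pseudogenes BNIP3P1, at up to 3.62% of BNIP3, and TPI1P1, at up to 1.24% of TPI1. For GAPDH the highest was GAPDHP1, at up to 0.161% of the GAPDH count.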

How the data were processed

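Poly(A) RNA from 12 AC16 libraries (4 groups of 3) was sequenced as stranded single-end reads, per the labels' protocols. A table of estimated counts per gene and a table of TPM per gene, both deposited by the authors, were used. The submitters' processing notes name Trim Galore 0.6.10, cutadapt 4.3, STAR 2.7.11a, featureCounts 2.0.3, edgeR and Picard 2.27.5 with build GRCh38.p13, and the design text names GENCODE 41 and DESeq2. Of the nonzero deposited count values 25.49% were not whole (tolerance 1e-06), so they were treated as estimated counts and rounded. The labels disagree on the culture medium, and give day 7 for the repeat harvest although its stated times sum to 6 d.

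Gene names came from GENCODE 44, which matched 60463 of 60649 IDs. Counts were tested with edgeR 4.0.16 in R 4.3.3 (TMM, filterByExpr, robust quasi-likelihood), in 1 fit of all libraries with 4 group means, and p-values were adjusted over 18119 genes. The fitted biological coefficient of variation was 2.67%. CPM are TMM-scaled. The steps were tested on simulated data. Alternatives were upper quartile and DESeq2 size factors, no filter, DESeq2 1.42.0, limma 3.58.1 on log2(TPM + 1) and log2(TPM + 0.1), a per-library offset for gene length, taken as counts over TPM, only the groups compared, a replicate block, and each library left out in turn. Members and lists were chosen with earlier results of these data known. Values in every library are given for genes called with an absolute log2 fold change of at least 0.5 in any comparison, for HIF1A, and for the highest mean TPM of each role group; LDHA and VEGFA were added after their values were seen. From each list of other genes the 3 calls of largest change after the first pulse are named. The labels call the replicates independent biological replicates, and their number limits precision. All came from the AC16 line, so the p-values measure the spread between replicate libraries of that line. The squared differences between replicates of a group were 1.77 to 3.02 times those of sampling noise (median over genes).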

Additional observations from a re-analysis of the deposited data

Results flagged for a closer look

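VEGFA was the only 1 of the 35 tested genes whose response differed between the later and the first pulse by the test of the difference itself (0.21 on the log2 scale, later minus first, edgeR adjusted p = 0.0413). It fell by 0.12 in repeat against recovery cells and by 0.33 in acute against vehicle cells. Its level at the end of the later pulse was close to that at the end of the first (-0.04, edgeR adjusted p = 0.681). The recovery level was under the vehicle level, and whether time in culture lowered it cannot be told from these groups. The call was lost on log2(TPM + 1), where the difference was 0.24 (limma adjusted p = 0.589), with the length offset (0.26, edgeR adjusted p = 0.53), and without any of 8 of the 12 libraries.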

How the results depend on the processing

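Gene length was the choice that moved the counts of calls most, over all genes as among the members. Over all genes, 4049 were called higher and 3889 lower in acute against vehicle, against 2274 and 2142 with the length offset and 2532 and 1812 on log2(TPM + 1). In recovery against vehicle these were 549 and 527, 107 and 71, and 76 and 42, and in repeat against acute 321 and 440, 5 and 5, and 3 and 3. Among the members, with the length offset, 5 were higher in acute against vehicle. The numbers higher and lower were 0 and 2 in recovery against vehicle and 6 and 8 in repeat against recovery. In recovery against acute 6 were lower, in repeat against acute the numbers were 0 and 0, and for the difference between pulses 0 were higher. Members were also called lower in acute against vehicle and higher in recovery against acute, in numbers not given here. On log2(TPM + 1), and equally on log2(TPM + 0.1), the numbers higher and lower in the same order were 5 and 11, 0 and 1, 6 and 8, 8 and 6, 0 and 0, and 0 higher for the difference. Directions of called genes turned for SLC16A3 in acute against vehicle (-0.0777 with the offset, -0.0526 and -0.0528 on the TPM scales) and in recovery against vehicle (-0.0125, -0.015 and -0.0151), for PFKFB4 in recovery against vehicle with the offset (0.00214), for PFKL in repeat against vehicle (0.0782, 0.0857 and 0.0872) and for SLC2A1 in recovery against acute (0.0942, 0.069 and 0.0692). No filter gave 0 higher in recovery against vehicle, and fitting only the groups compared gave 0 higher in repeat against acute. Of 27 genes called after the first pulse, 16 were called in the same direction in every alternative tried, as were 12 of 26 after the later pulse and 1 of 9 in recovery against vehicle.

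With libraries left out in turn, the numbers ran over 0 to 1 higher and 5 to 8 lower in recovery against vehicle, 0 to 4 higher and 1 to 3 lower in repeat against acute, and 0 to 2 higher for the difference. The counts over all genes ran over 341 to 578 higher and 283 to 594 lower in recovery against vehicle. They ran over 147 to 526 and 166 to 692 in repeat against acute, and 13 to 90 higher for the difference. The replicate numbers did not pair the libraries (correlations of -0.082 to 0.076 over 18 same-numbered pairs), and the replicate block gave 9 and 18 in acute against vehicle, 1 and 8 in recovery against vehicle, and 10 and 16 in repeat against recovery. Low counts limit CA9 and ANKRD37, and ANGPTL4 among the other genes, and EGLN3 could not be tested.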
